A study of Mus musculus with 2 samples.

Results

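The genes described are 10 that mark hepatic stellate cells or the embryonic mesenchyme and mesothelium from which such cells arise: Pdgfra, Pdgfrb, Des, Lrat, Reln, Dcn, Lhx2, Hand2, Wt1 and Tcf21. They were chosen by name, with earlier results of these data known, out of 21884 protein-coding genes with a unique name in GENCODE M21. Every DNase-seq peak and footprint in the body of these genes, or within 50 kb of any of their transcript starts, was taken. Peaks of the replicates that overlap by at least 1 bp were merged into a region called shared, and other regions are called replicate 1 alone or replicate 2 alone. This gave 70 of the 99252 regions of the series, of which 22 were shared, 20 were of replicate 1 alone and 28 were of replicate 2 alone.

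DNase-seq maps open chromatin by the positions at which the enzyme DNase I cuts DNA in isolated nuclei. The study holds 2 libraries of whole liver from mouse embryos of 13.5 days, labelled as biological replicates 1 and 2 and taken from separate tissue samples. Both carry the strain label C57BL/6N,129, are labelled wild type with multiple copies of a yeast artificial chromosome, the A85 YAC, and share a donor label. Sex was not collected. They form 1 group with no second condition, so no comparison between conditions exists and every difference below is a difference between 2 libraries. The content of the YAC is not stated, and reads from it that match a mouse sequence would add to the value at that place.

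Hepatic stellate cells lie between hepatocytes and the sinusoidal endothelium, store vitamin A as retinyl esters and, after injury, turn into collagen-making myofibroblasts. In the embryo they arise from mesenchyme of the septum transversum and from the mesothelium that covers the liver. The fetal liver at mid-gestation is above all a site of red cell formation, so mesenchymal cells are a minority of its nuclei. In bulk tissue, fewer cells of a type and less open chromatin per cell cannot be told apart.

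The longer peak list of each library held 76130 peaks in replicate 1 and 73852 in replicate 2. Peak values are a signal scaled within each library, and all of them (100% within 0.05 of a step) were whole multiples of a step of 0.0127 in replicate 1 and 0.00604 in replicate 2. Read as counts, the median peak rested on 69 counts in replicate 1 and 126 in replicate 2, so replicate 2 gives the narrower intervals. Intervals in brackets are 95% Poisson intervals of these counts and cover counting error only. The ratio of replicate 2 to replicate 1 had a median of 0.878 over all 45831 shared regions, and a centred ratio is the ratio divided by this median. Against the liver label, the markers of its main cell types were checked. Of the erythroid markers 9 of 10 had a shared promoter region, beside 58.4% of all protein-coding genes. They were led by the erythropoietin receptor gene Epor at 16.5 in replicate 1 and 9.28 in replicate 2. Of the hepatoblast markers 4 of 10 did, led by Foxa3 with 12.0 and 7.93, a count below that share. The hepatoblast count alone does not bear out the label.

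A promoter region was defined as lying within 1 kb of any transcript start of a gene. A shared promoter region was present at 4 of the 10 genes (Pdgfra, Lrat, Reln and Lhx2), beside 58.4% of all protein-coding genes. Replicate 1 had a promoter peak at 6 of the 10, beside 60.7% of all genes, and replicate 2 at 8 of the 10, beside 65.3%. Wt1, Hand2 and Tcf21, 3 transcription factor genes, had a promoter peak in replicate 2 and none in replicate 1, a state found at 6.42% of all genes. Pdgfrb was the 1 gene with the reverse state, found at 1.77% of all genes. Des had promoter peaks in both replicates that did not overlap, as did 0.535% of all genes. Dcn had none in either replicate, as did 32.9% of all genes. At the outermost 5' end alone, shared regions were present at 2 of the 10 genes (Lrat and Reln), beside 53.7% of all genes. In the shorter, stricter peak lists 3 of the 4 shared promoters were still present (all but Lrat), promoter peaks were present at 3 genes in replicate 1 and 4 in replicate 2, and the peaks at Wt1, Hand2 and Tcf21 were absent. With 10 genes these counts are descriptions, and no test of them was made.

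**Figure D1:**
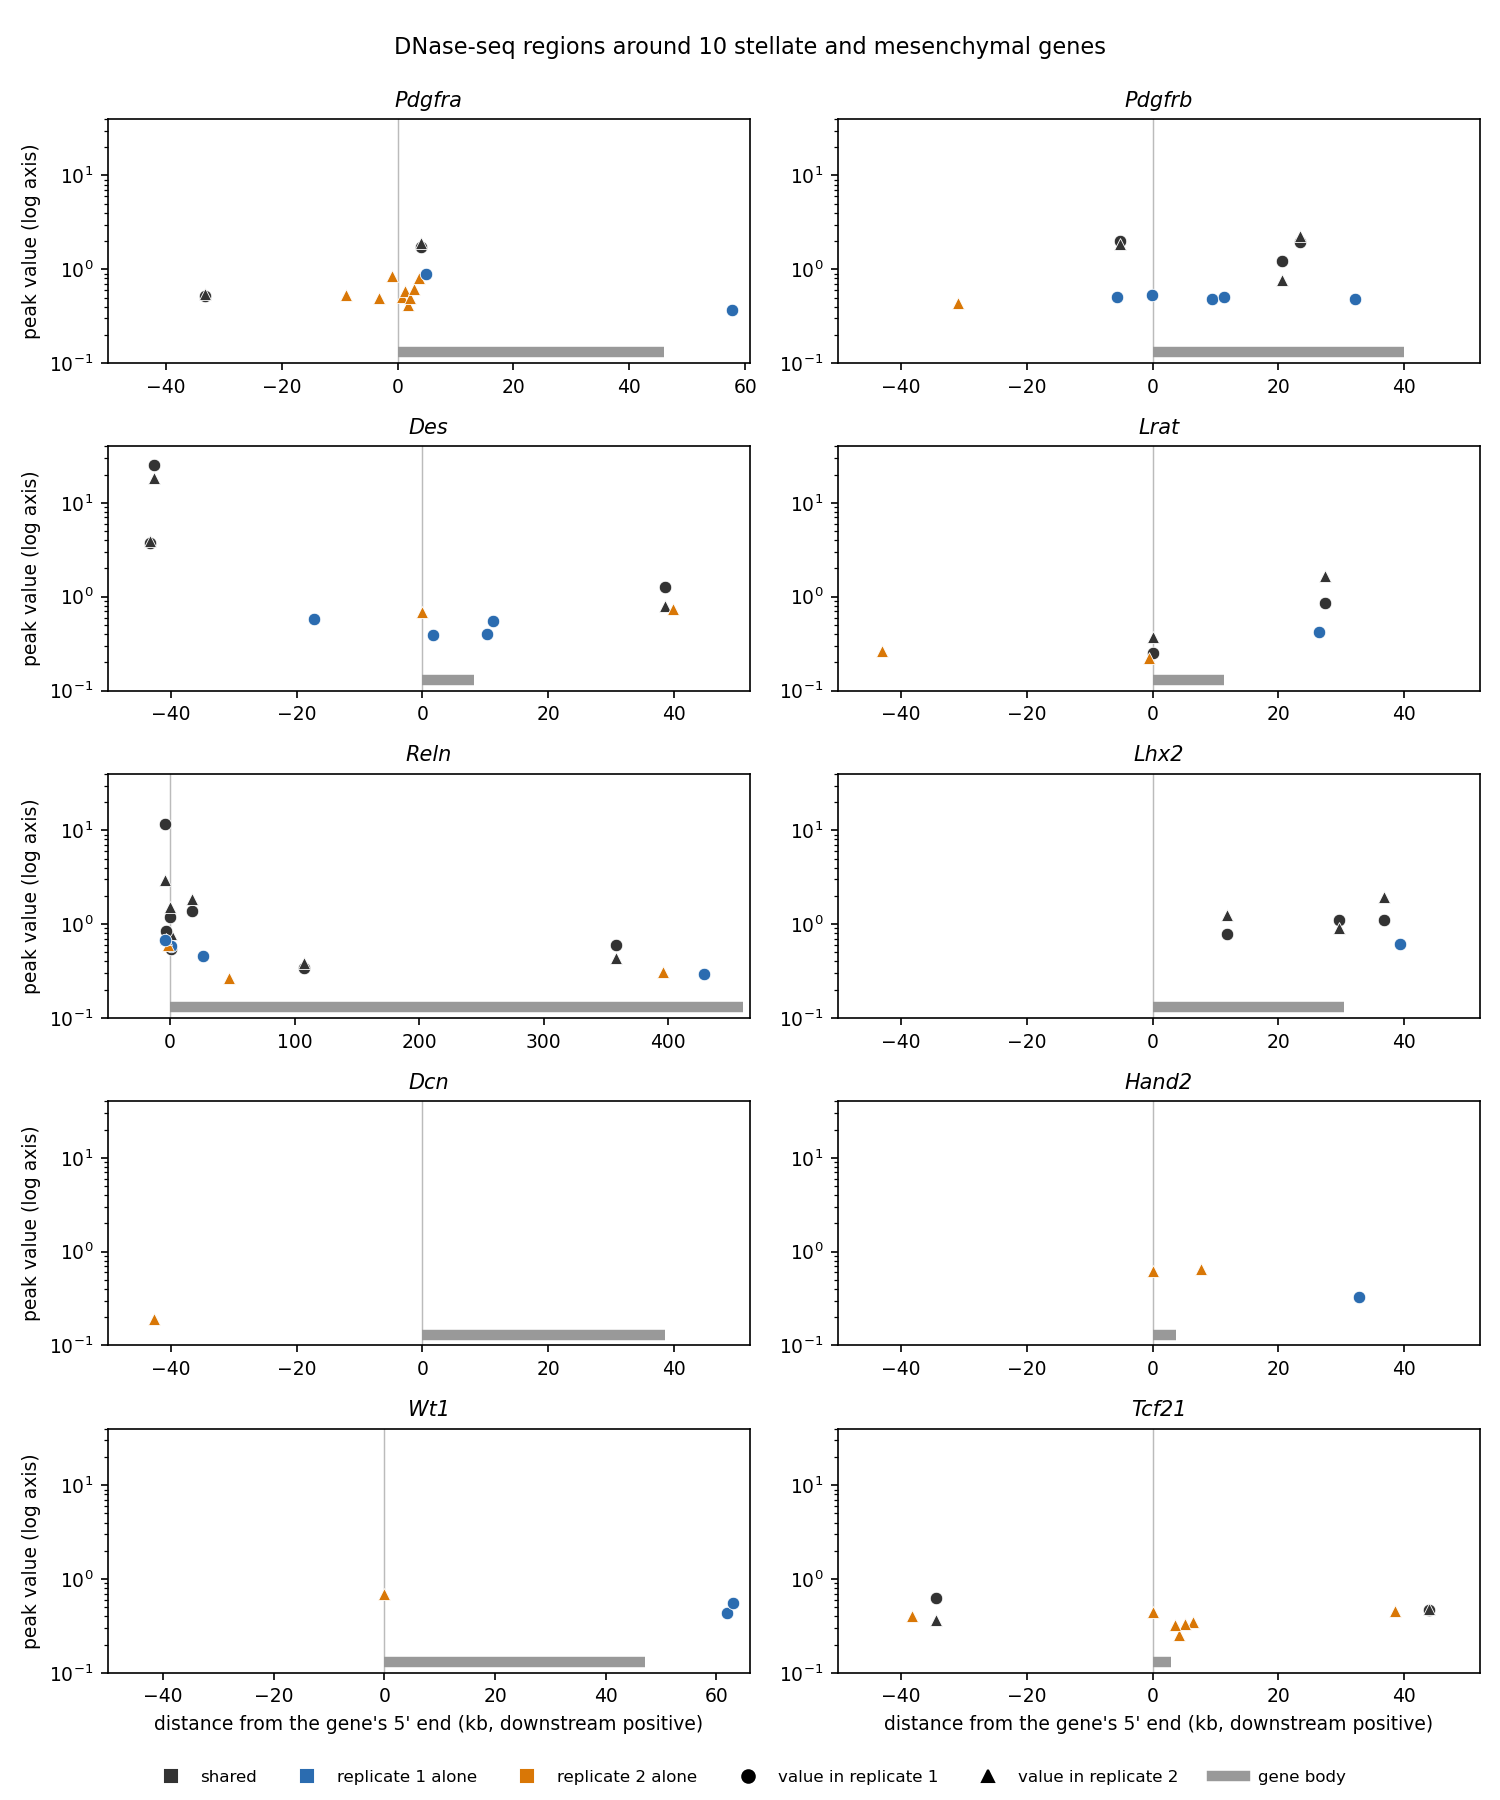
Regions around each of the 10 genes, with the distance from the gene's 5' end in kb on the x axis (each panel has its own range) and the peak value on a log y axis. Circles give replicate 1 and triangles replicate 2, black marks shared regions, blue replicate 1 alone and orange replicate 2 alone, and the grey bar is the gene body. Reln and Pdgfra hold the most regions (14 and 13) and Dcn holds 1, while values as high as 25.4 in replicate 1 and 18.4 in replicate 2 belong to the promoter of Dnpep upstream of Des.

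Pdgfra, which encodes the alpha receptor for platelet-derived growth factor (PDGF) and marks fibroblasts and mesenchymal progenitors, had the most promoter regions of the 10 genes. Its 9 annotated transcript starts spread over the 5' part of a gene at chr5:75152292-75198215 on the plus strand (mm10). The shared promoter region at chr5:75156261-75156480 lay 3969 bp downstream of the 5' end and 353 bp from an internal start. Its value was 1.72 (1.44 to 2.04) in replicate 1 and 1.93 (1.73 to 2.16) in replicate 2. The intervals overlap, and the centred ratio was 1.28 (1.04 to 1.57), so replicate 2 was somewhat higher relative to the typical shared region. All 3 footprints of replicate 1 in it (short stretches protected from cutting, as a bound protein leaves them) overlapped footprints of replicate 2.

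Along the same stretch, 7 further promoter regions were of replicate 2 alone, with values from 0.416 to 0.851, and none of them held a base that passed the false discovery rate (FDR) limit of 0.05 in replicate 1. Having 3 or more promoter regions of replicate 2 alone was found at 3.13% of all genes and, among the 10, at Pdgfra only. That share is not matched for the number or spread of starts. Any of the 9 starts of Pdgfra counts here, and the 7 regions lay 709 to 3409 bp from its 5' end. The highest of the 7, at chr5:75151201-75151400, lay 892 bp upstream of the 5' end with a value of 0.851 (0.716 to 1.00) and an FDR of 1.65e-06. A region of replicate 1 alone at chr5:75157141-75157317 in an intron had a value of 0.886 (0.691 to 1.12) and is absent from the peaks of replicate 2. The 7 regions of replicate 2 alone all lay upstream of the shared region, and the region of replicate 1 alone lay downstream of it. The antisense gene Gm42802 lies within this stretch, and DNase-seq does not tell strands apart. Both sequences are shown, as the strongest promoter region found in both libraries and the strongest found in replicate 2 alone: the shared region from its first base outside annotated UTRs, with capitals for bases in footprints of both replicates, and the upstream region, with capitals for footprint bases of replicate 2. Both are on the plus strand of mm10, at chr5:75156350-75156480 and chr5:75151201-75151400.
Pdgfra shared promoter region: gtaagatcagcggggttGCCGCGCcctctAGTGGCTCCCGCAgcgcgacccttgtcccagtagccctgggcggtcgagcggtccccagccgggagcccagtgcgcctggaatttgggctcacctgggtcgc
Pdgfra upstream region of replicate 2: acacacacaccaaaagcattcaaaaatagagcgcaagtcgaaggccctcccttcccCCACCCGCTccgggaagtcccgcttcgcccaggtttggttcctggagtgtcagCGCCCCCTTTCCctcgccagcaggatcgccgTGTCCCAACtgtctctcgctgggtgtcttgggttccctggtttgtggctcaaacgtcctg

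The shared Pdgfra stretch as printed has its footprint bases in a GC-rich setting, and none of the 15 motifs searched lay at them. In the upstream region a footprint holds AGGGGGC (the core letters of the CTCF motif, on the minus strand here), and CANNTG, the E-box, lies within 5 bases of another. AGGGGGC on either strand was present in the central 200 bases of 8.33% of all promoter regions of replicate 2 alone and CANNTG in 58.6%. Away from its promoter Pdgfra had 1 shared distal region, 33132 bp upstream at chr5:75118942-75119160, with values of 0.519 (0.372 to 0.704) and 0.543 (0.437 to 0.668), which agree within counting error. A distal region is more than 1 kb from every start of a protein-coding gene.

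Pdgfrb, the beta receptor of PDGF and a marker of pericytes and stellate cells, showed the opposite layout: open regions lay away from the promoter. At its 5' end only replicate 1 had a peak, with a value of 0.532 (0.383 to 0.719), 42 counts and an FDR of 0.00455. Its 3 shared distal regions were all higher than that. The region at chr18:61068481-61068680, in an intron 23331 bp downstream of the 5' end, had values of 1.95 (1.65 to 2.28) in replicate 1 and 2.26 (2.04 to 2.5) in replicate 2. In both libraries this stands above the medians of all shared distal regions, which were 1.14 and 0.911.

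Upstream of Pdgfrb, the region at chr18:61039921-61040120 had values of 1.99 (1.69 to 2.32) and 1.88 (1.67 to 2.10), a centred ratio of 1.08 (0.885 to 1.31). It lay 5030 bp from the start of Pdgfrb and 3722 bp from that of Cdx1, an intestinal homeobox gene, so distance alone does not assign it to Pdgfrb. The region at chr18:61065581-61065836, over an exon, had values of 1.22 (0.984 to 1.48) and 0.761 (0.634 to 0.906), and its centred ratio of 0.713 (0.542 to 0.94) puts replicate 1 higher. All 3 held a footprint that overlapped between the replicates. In the intronic region this footprint holds GTGGGAG, letters of the type bound by WT1 and EGR factors, which the central 200 bases of 6.31% of all shared distal regions hold. A further 4 distal regions of replicate 1 alone, with values from 0.481 to 0.506, and no distal region of replicate 2 alone lay around Pdgfrb. Csf1r, the macrophage receptor gene downstream of Pdgfrb, had no promoter peak in either replicate.

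The ligands of these receptors were on a list of other pathway genes. All 4 PDGF ligand genes (Pdgfa, Pdgfb, Pdgfc and Pdgfd) had a shared promoter region, beside 58.4% of all protein-coding genes. The values were low throughout: the highest by the sum over both libraries, at Pdgfa, was 0.481 in replicate 1 and 0.905 in replicate 2, beside medians of 2.62 and 2.40 over all shared promoter regions. None of the 4 had a shared distal region, which 72.1% of all protein-coding genes had.

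Des encodes desmin, the muscle-type intermediate filament that marks stellate cells in rodents. Replicate 2 had a peak over the 5' end with a value of 0.688 (0.568 to 0.827), and replicate 1 had a peak 1605 bp downstream, at an internal start, with a value of 0.392 (0.267 to 0.557). They are different places, so Des had no shared promoter region although both libraries had a peak within 1 kb of a start. Its 1 shared distal region, at chr1:75398801-75398980 in an intron of Speg, a striated muscle kinase gene, had values of 1.28 (1.04 to 1.55) and 0.803 (0.672 to 0.951). Of the 9 regions in the Des window, the strongest was not at Des at all: the promoter of Dnpep, an aspartyl aminopeptidase gene, 42389 bp upstream, had values of 25.4 (24.3 to 26.6) and 18.4 (17.8 to 19.1). Within 1 kb of the Dnpep starts lay 14 of the 15 footprints of replicate 1 in the Des window that overlapped a footprint of replicate 2.

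Lrat encodes lecithin retinol acyltransferase, the enzyme that makes the retinyl esters stored by stellate cells. Its shared promoter region, over the 5' end at chr3:82903795-82904120, had the lowest values of the 5 shared promoter regions of the 10 genes: 0.253 (0.155 to 0.391) in replicate 1, from 20 counts, and 0.374 (0.287 to 0.480) in replicate 2, from 62 counts. These lie at percentiles 3.63 and 19.2 of the peaks of each library. The centred ratio was 1.68 with an interval of 1.00 to 2.94, which touches equality. Replicate 1 had no footprint in it and replicate 2 had 2. The region is absent from the shorter, stricter peak list of replicate 1. Its part outside annotated UTRs is shown as the weakest shared promoter of the set, at chr3:82903974-82904120 on the plus strand of mm10 (Lrat itself is on the minus strand), with the footprint bases of replicate 2 in capitals.
Lrat shared promoter region: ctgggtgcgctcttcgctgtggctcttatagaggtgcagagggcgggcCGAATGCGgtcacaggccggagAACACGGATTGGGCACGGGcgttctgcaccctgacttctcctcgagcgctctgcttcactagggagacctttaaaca

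A stronger region near Lrat was the promoter of Rbm46, a gene of germ cell RNA binding, 27293 bp away. Its values were 0.848 (0.657 to 1.08) and 1.65 (1.46 to 1.86), and the centred ratio of 2.21 (1.69 to 2.94) was the highest of the 22 shared regions. Of 12 retinoid handling genes, 7 (58.3%) had a shared promoter region, beside 58.4% of all protein-coding genes. They were Rxra, Plin2, Dhrs3, Aldh1a2, Rarb, Aldh1a1 and Rbp4. The highest was Plin2, a lipid droplet coat gene, with 4.58 and 4.98. Cyp26a1, which degrades retinoic acid, had a promoter peak in replicate 2 only. Crabp1, Crabp2 and Stra6, which encode retinoic acid binding proteins and a retinol transporter, had none in either.

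Reln encodes reelin, a large secreted glycoprotein known from neuronal migration and made in liver by stellate cells. It had the most shared regions of the 10 genes, 2 at the promoter and 5 distal. The promoter region over the 5' end, chr5:22344381-22345649, was 1269 bp wide, with values of 1.19 (0.961 to 1.46) in replicate 1 and 1.51 (1.33 to 1.71) in replicate 2. A neighbouring shared promoter region in the gene had 0.544 (0.394 to 0.733) and 0.779 (0.650 to 0.925). This weaker region was in neither shorter peak list and held no footprint of replicate 1. Its FDR in replicate 1 was 0.0385, with 53 of its 260 bp under the limit. In both promoter regions, replicate 2 was higher after centring, by 1.44 (1.14 to 1.85) and 1.63 (1.15 to 2.36). The first held 7 footprints of replicate 1 and 14 of replicate 2, of which 2 in each overlapped.

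The highest value at any region of the 10 genes, leaving out the Dnpep promoter, was at chr5:22348501-22348720, 3799 bp upstream of Reln. There replicate 1 had 11.6 (10.9 to 12.4) from 919 counts and replicate 2 had 2.92 (2.67 to 3.19) from 484 counts. The intervals are far apart, and the centred ratio was 0.286 (0.256 to 0.320). It was the 1 region among the 22 that was over 2-fold higher in replicate 1, beside 5.64% of all shared regions. Its FDR was 9.53e-51 in replicate 1 and 1.62e-13 in replicate 2, and 3 footprints of each library overlapped. The longest of these holds GATAA, the letters bound by GATA factors, at 2 places, with an E-box between them. GATAA was in the central 200 bases of 28.9% of all shared distal regions and CANNTG in 69.5%. Both Reln stretches are shown because the replicates differ in opposite directions at them. They are on the plus strand of mm10 at chr5:22345164-22345463, the part of the promoter region outside annotated UTRs with the most footprint bases, and chr5:22348501-22348720. Capitals mark bases in footprints of both replicates, and Reln is on the minus strand.
Reln shared promoter region: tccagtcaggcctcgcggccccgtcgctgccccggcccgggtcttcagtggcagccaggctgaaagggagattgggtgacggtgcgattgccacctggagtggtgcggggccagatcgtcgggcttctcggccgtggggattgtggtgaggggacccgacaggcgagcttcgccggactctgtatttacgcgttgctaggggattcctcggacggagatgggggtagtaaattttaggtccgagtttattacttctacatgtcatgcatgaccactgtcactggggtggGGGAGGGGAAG
Reln upstream region: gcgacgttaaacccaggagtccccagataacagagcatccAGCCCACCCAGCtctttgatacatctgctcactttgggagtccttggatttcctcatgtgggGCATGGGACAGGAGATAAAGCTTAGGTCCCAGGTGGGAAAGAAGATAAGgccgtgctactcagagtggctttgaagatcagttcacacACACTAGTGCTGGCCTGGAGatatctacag

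At the same time the 9 erythroid markers with a shared promoter region all had a centred ratio below 1, from 0.452 to 0.767 with a median of 0.642, and the sum of their values was 68.2 in replicate 1 and 36.8 in replicate 2. The part of this difference in the value upstream of Reln was not tested. Inside Reln, 3 of the shared distal regions lay in introns. The highest, chr5:22327301-22327500, had values of 1.37 (1.12 to 1.65) and 1.86 (1.66 to 2.08), and it was the 1 shared distal region of the 14 with more than 50% of its central 200 bases annotated as repeat. Of 10 partner and target genes of reelin, decorin and desmin, 5 had a shared promoter region, beside 58.4% of all protein-coding genes. They were Lrp8, Tgfb1, Synm, Tgfbr2 and Plec, led by the reelin receptor gene Lrp8 with 10.8 and 6.16. The other reelin receptor gene, Vldlr, and the adaptor gene Dab1 had promoter peaks in replicate 2 only.

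Dcn encodes decorin, a small proteoglycan that binds collagen and is abundant in fibroblasts. It was the most closed of the 10 genes. Neither library had a peak within 1 kb of any of its 5 starts, a shared region or a footprint anywhere in its window. A single region of replicate 2 alone, 42669 bp upstream, had a value of 0.193 (0.132 to 0.273) from 32 counts. The lists hold called peaks only, with lowest values anywhere of 0.0886 and 0.0423, so signal below the call was not measured here.

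Lhx2 encodes a LIM homeodomain factor that is made by stellate cells and restrains their activation. Its 5' end at position 38339281 of chromosome 2 had no peak in either library. The shared promoter region lay 11600 bp downstream at chr2:38350881-38351200, 122 bp from an internal start in GENCODE and beside a start that RefSeq places at 38351308 (build GRCm38.p6). The values were 0.785 (0.602 to 1.01) in replicate 1 and 1.24 (1.08 to 1.43) in replicate 2, and the intervals do not overlap. Its CpG content was the highest of the shared promoter regions of the 10 genes, with an observed over expected ratio of 1.11.

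Downstream of Lhx2, the shared region at chr2:38376041-38376220 had values of 1.11 (0.893 to 1.37) and 1.97 (1.76 to 2.19). The centred ratio of 2.01 (1.59 to 2.58) makes it, beside the Rbm46 promoter, 1 of 2 regions among the 22 over 2-fold higher in replicate 2, against 3.02% of all shared regions. A footprint found in both libraries holds AGGGGGC on the minus strand, letters that the central 200 bases of 13.8% of all shared distal regions hold. The other shared distal region of Lhx2, over its last part at chr2:38368884-38369080, had 1.10 (0.882 to 1.36) and 0.911 (0.772 to 1.07), with a centred ratio of 0.943 (0.719 to 1.24). The first is shown for its footprints, with capitals for bases protected in both replicates, on the plus strand of mm10.
Lhx2 downstream region: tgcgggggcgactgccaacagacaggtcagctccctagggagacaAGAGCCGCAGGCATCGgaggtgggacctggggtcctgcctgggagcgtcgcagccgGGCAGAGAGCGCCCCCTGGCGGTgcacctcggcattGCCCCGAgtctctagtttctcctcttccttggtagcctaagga

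Hand2, Wt1 and Tcf21 encode factors of the septum transversum mesenchyme and mesothelium: a basic helix-loop-helix factor of heart and limb, the zinc finger factor of the Wilms tumour gene, and a basic helix-loop-helix factor of visceral mesenchyme. At each of them replicate 2 had a peak over the 5' end and replicate 1 had none. The values were 0.622 (0.507 to 0.754) at Hand2, 0.694 (0.573 to 0.833) at Wt1 and 0.441 (0.345 to 0.554) at Tcf21. The median of all promoter regions of replicate 2 alone was 0.489, which lies inside the interval of Tcf21 and below those of Hand2 and Wt1. None of the 3 regions was in the shorter list of replicate 2, and none held a base under the FDR limit in replicate 1. Hand2os1, annotated as a processed transcript, starts 59 bp from the Hand2 region, and the antisense gene Wt1os starts inside the Wt1 region. DNase-seq does not tell these from the genes themselves.

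Wt1 had 3 footprints of replicate 2 in its promoter region. The widest holds GGGCGG, the GC box bound by SP and KLF factors, and CCACACCC, letters of the KLF1 type, which overlap each other. The central 200 bases of 28.5% and 2.52% of all promoter regions of replicate 2 alone hold them. Replicate 1 had only 2 regions downstream of Wt1, with values of 0.430 (0.298 to 0.601) and 0.557 (0.405 to 0.748), and Wt1 had no shared region. Both were in the shorter list of replicate 1, with FDR values of 4.70e-05 and 6.26e-07. Hand2 likewise had no shared region. Beside its promoter it had a region of replicate 2 alone 7687 bp downstream, with a value of 0.652 (0.535 to 0.787) and a CpG ratio of 0.99, and a region of replicate 1 alone with 0.329 (0.215 to 0.482).

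Tcf21 had 7 regions of replicate 2 alone and none of replicate 1 alone. Of these, 4 lay between 3494 and 6353 bp downstream of its 5' end, with values from 0.254 to 0.344. Its 2 shared regions were distal: chr10:22776161-22776340 had 0.468 (0.330 to 0.645) and 0.477 (0.378 to 0.594), and chr10:22854421-22854660 had 0.633 (0.470 to 0.834) and 0.368 (0.282 to 0.473). The first differed by less than counting error, while the centred ratio of the other was 0.663 (0.448 to 0.983). Sequences are shown for the Wt1 promoter as far as its first UTR base, the Hand2 downstream region and the Tcf21 region that was the higher of the pair in replicate 1 and the lower in replicate 2, on the plus strand of mm10 at chr2:105126411-105126528, chr8:57328670-57328831 and chr10:22854421-22854660. They stand for a promoter and a distal region found in 1 library and a distal region found in both. Capitals mark footprint bases of replicate 2 in the Wt1 and Hand2 regions and of both replicates in the Tcf21 region.
Wt1 promoter region of replicate 2: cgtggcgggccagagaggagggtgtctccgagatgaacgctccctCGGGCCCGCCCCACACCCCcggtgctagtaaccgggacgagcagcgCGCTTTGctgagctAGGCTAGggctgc
Hand2 downstream region of replicate 2: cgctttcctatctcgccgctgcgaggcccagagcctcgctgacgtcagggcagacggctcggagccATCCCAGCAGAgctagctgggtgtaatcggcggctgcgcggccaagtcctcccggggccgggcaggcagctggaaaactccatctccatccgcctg
Tcf21 shared distal region: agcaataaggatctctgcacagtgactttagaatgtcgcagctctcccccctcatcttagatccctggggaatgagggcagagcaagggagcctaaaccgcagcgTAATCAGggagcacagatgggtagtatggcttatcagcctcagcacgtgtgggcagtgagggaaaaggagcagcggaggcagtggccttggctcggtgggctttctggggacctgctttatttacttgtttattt

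**Figure D2:**
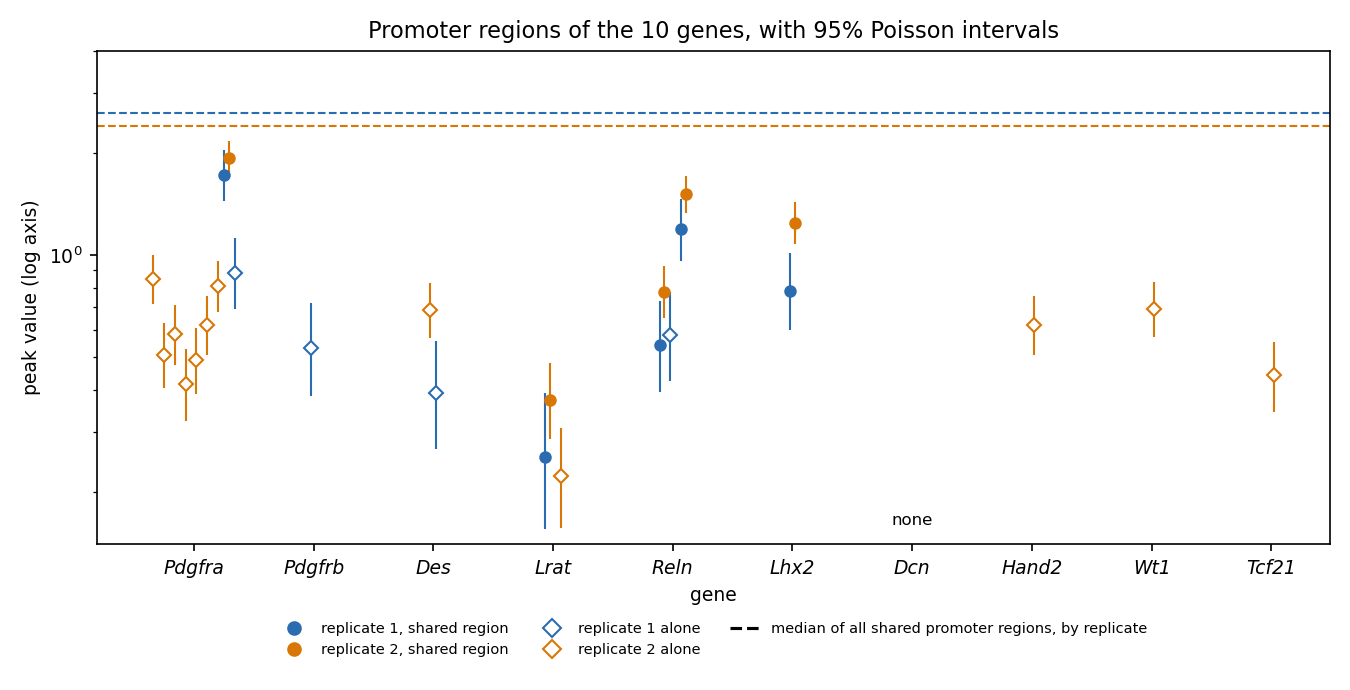
Values of the 21 promoter regions of the 10 genes on a log axis, with 95% Poisson intervals, replicate 1 in blue and replicate 2 in orange. Filled circles are shared regions and open diamonds regions of 1 replicate alone, and all lie below the dashed medians of all shared promoter regions, 2.62 in replicate 1 and 2.40 in replicate 2.

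Across the 10 genes, then, promoter regions were weak and often found in 1 library. The 5 shared promoter regions had medians of 0.785 in replicate 1 and 1.24 in replicate 2. Even that of Pdgfra, with the top value, stayed below the medians of all shared promoter regions. Of the 21 promoter regions, 5 were shared, 4 were of replicate 1 alone and 12 of replicate 2 alone. Over all promoter regions these shares were 60.6%, 15.3% and 24.2%. Pdgfra gave 7 of the 12, so the count rests largely on that gene, and the other 5 lay at Des, Lrat, Hand2, Wt1 and Tcf21. Counted by gene, a stretch under the FDR limit lay within 1 kb of the 5' end of 3 genes in replicate 1 and 7 genes in replicate 2, beside 57.0% and 61.8% of all genes.

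The FDR values show whether single-replicate regions held a stretch under the limit of 0.05 in the other library. Values above the limit are not among the data. A missing stretch therefore cannot tell a near miss from no signal, and the counts are descriptions of few regions. None of the 12 promoter regions of replicate 2 alone held a stretch of replicate 1 under the limit, beside 15.5% of all such regions, and none of the 14 distal ones did, beside 7.22%. Of the regions of replicate 1 alone, 1 of 4 at promoters (at Reln) held a stretch of replicate 2, beside 45.2%, and 0 of 15 distal ones did, beside 6.32%. Only 3 of the 12 promoter regions of replicate 2 alone, all at Pdgfra, were also in the shorter peak list of replicate 2. None of the 4 of replicate 1 alone was in that of replicate 1. At distal regions the order was reversed. There 4 of 15 regions of replicate 1 alone and 0 of 14 of replicate 2 alone were in the shorter list of their own library.

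**Figure D3:**
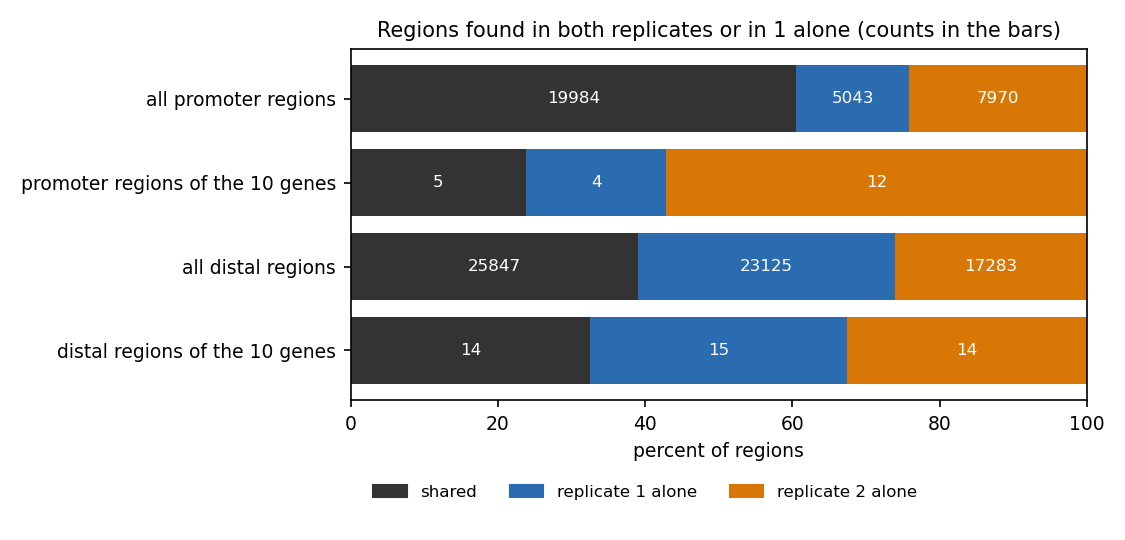
Percent of regions that were shared, of replicate 1 alone or of replicate 2 alone, with counts in the bars, for all promoter and distal regions and for those of the 10 genes. At promoters of the 10 genes 5 of 21 regions were shared, beside 60.6% of all promoter regions, while distal regions of the 10 genes (14, 15 and 14) were closer to the shares of all distal regions (39.0%, 34.9% and 26.1%).

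Distal regions numbered 43, of which 14 were shared, 15 were of replicate 1 alone and 14 of replicate 2 alone. Over all distal regions the shares were 39.0%, 34.9% and 26.1%. Shared distal regions were present at 6 of the 10 genes (5 at Reln, 3 at Pdgfrb, 2 each at Lhx2 and Tcf21, 1 each at Pdgfra and Des), beside 72.1% of all genes. The mean was 1.40 per gene beside 2.41 over all genes. Their values had medians of 1.11 and 0.782, beside 1.14 and 0.911 over all shared distal regions.

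The shared regions were also compared between the libraries. Over all 22 the median log2 centred ratio was 0.26, and 14 of the 22 regions were above the median of all shared regions. The interval lay above 1 at 9 regions and below 1 at 5. At promoters of the 10 genes, 5 of 5 regions were above 1 with a median of 1.63, beside 54.9% of all shared promoter regions. That share is not matched for value. These 5 regions, 2 of them at Reln, had 0.253 to 1.72 in replicate 1, below the median of 2.62 over all shared promoter regions. Over the whole series, shared regions with low values in replicate 1 lay mostly above 1. At distal regions 7 of 14 were, with a median of 1.01, beside 46.2%. The difference between promoter and distal regions was not tested.

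**Figure D4:**
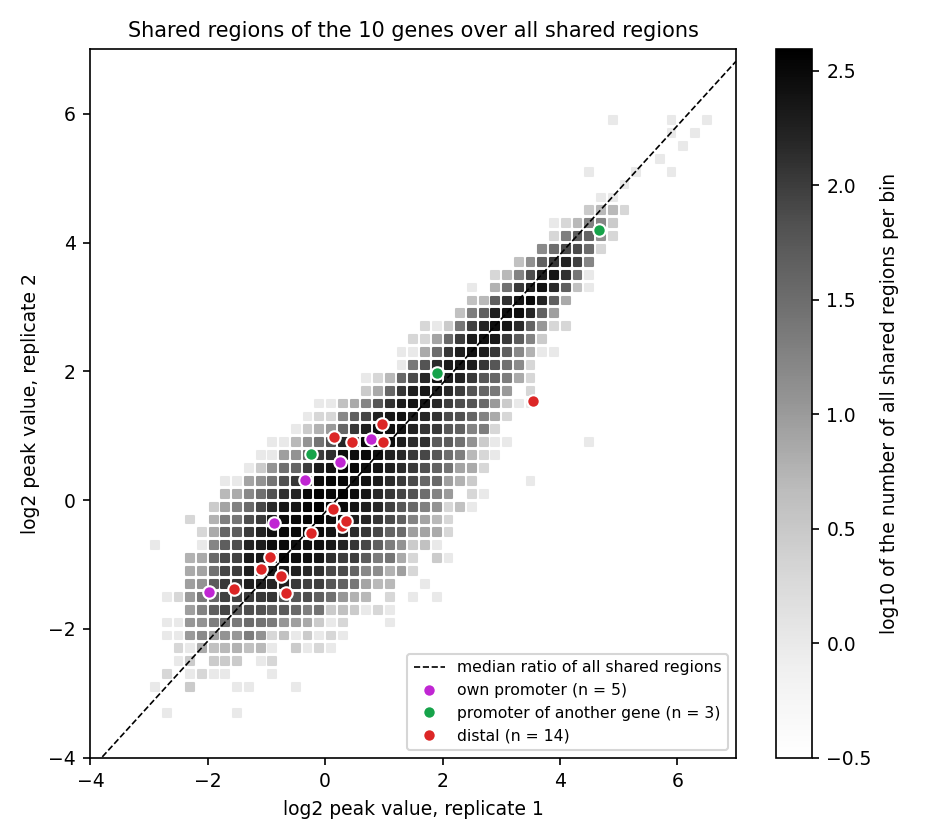
The log2 peak value of the 22 shared regions of the 10 genes in replicate 1 (x) and replicate 2 (y), over all 45831 shared regions in grey bins, with the median ratio dashed. All 5 promoter regions lie above the dashed line, and the red point far below it is the region upstream of Reln with values of 11.6 and 2.92.

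Footprints in the windows numbered 64 in replicate 1 and 124 in replicate 2, and 40 of the former (62.5%) overlapped a footprint of the other library, beside 56.8% of all footprints of replicate 1. For replicate 2 it was 36 (29.0%), beside 35.6%. The first of these shares rests on Dnpep: without the footprints within 1 kb of its starts, 26 of 49 in replicate 1 (53.1%) and 23 of 105 in replicate 2 (21.9%) overlapped. At 16 of the 22 shared regions a footprint overlapped between the replicates, beside 66.4% of all shared regions. This held for 10 of the 14 shared distal regions, beside 64.9%. Regions of replicate 1 alone held a footprint in 5 of 20 cases, beside 40.6%, and those of replicate 2 alone in 20 of 28, beside 61.1%. Base composition followed the same classes: the median CpG observed over expected ratio of the promoter regions was 0.83 in shared ones, 0.58 in those of replicate 2 alone and 0.27 in those of replicate 1 alone, beside 0.76, 0.53 and 0.39 over all promoter regions.

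Other genes of these cells, from lists that were not part of the 10, showed the same kinds of state. These lists too were chosen with earlier results of the data known. Of 20 further stellate and mesenchymal genes, 9 had a shared promoter region, beside 58.4% of all protein-coding genes. They were Vim, Nes, Spon2, Col1a2, Mest, Tagln, Col1a1, Gata4 and Ednrb, led by the collagen gene Col1a1 with 2.90 and 2.83. A further 8 had a promoter peak in replicate 2 only (Col3a1, Rgs5, Postn, Hgf, Foxf1, Cspg4, Lum and Acta2), 1 in replicate 1 only, and Ngfr and Cygb had none. Of 10 mesothelial genes, 2 had a shared promoter region, beside the same 58.4%. They were Podxl, the higher, with 3.51 and 3.21, and Alcam. A further 6 mesothelial genes had a promoter peak in replicate 2 only and 2 had none. Elsewhere, 1 of 10 erythroid, 3 of 10 hepatoblast and 0 of 8 macrophage markers had a promoter peak in replicate 2 only. So did 1 of 8 endothelial and 1 of 6 megakaryocyte markers, beside the 6.42% of all genes. The same state was found at 1 of 12 retinoid handling, 0 of 4 PDGF ligand and 2 of 10 partner genes. Hepatoblast markers matched the 10 genes described, with 3 of 10 in this state and 4 of 10 with a shared promoter region.

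The lists also differed in the ratio between libraries at the highest shared promoter region of each gene, which was above 1 after centring at 46.1% of all genes with such a region. It was above 1 at 4 of 4 of the genes described, with a median of 1.56, and at 7 of 9 further stellate and mesenchymal genes, with a median of 1.48. It was above 1 at 2 of 2 macrophage, 2 of 2 endothelial and 3 of 4 hepatoblast markers, and at 0 of 9 erythroid and 0 of 2 megakaryocyte markers. The same held at 2 of 2 mesothelial genes, with a median of only 1.07, and at 1 of 5 partner genes, with a median of 0.919. For PDGF ligand genes it was 3 of 4 (median 2.07), and for retinoid handling genes 6 of 7 (median 1.29). Summed without centring, the values moved from 3.95 to 5.06 over the genes described and from 10.1 to 10.5 over further stellate and mesenchymal genes. They moved from 15.4 to 11.3 over hepatoblast markers, of which Foxa3 made up 12.0 and 7.93. They moved from 1.95 to 2.97 over endothelial markers (led by Egfl7, 1.03 and 1.88, with Kdr). Over megakaryocyte markers they moved from 12.6 to 9.48 (led by Itga2b, 9.30 and 7.67, with Vwf). The ratio also varied with the value. Over all shared regions, most with low values in replicate 1 had a centred ratio above 1, and most with high values had one below. The 46.1% is not matched for value. At these promoter regions replicate 1 had 0.253 to 1.72 at the genes described and 2.09 to 16.5 at erythroid markers. The part of cell makeup, of this dependence on value and of the greater depth of replicate 2 in these differences was not tested. With 1 library of each replicate, cell makeup and depth cannot be told apart.

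**Figure D5:**
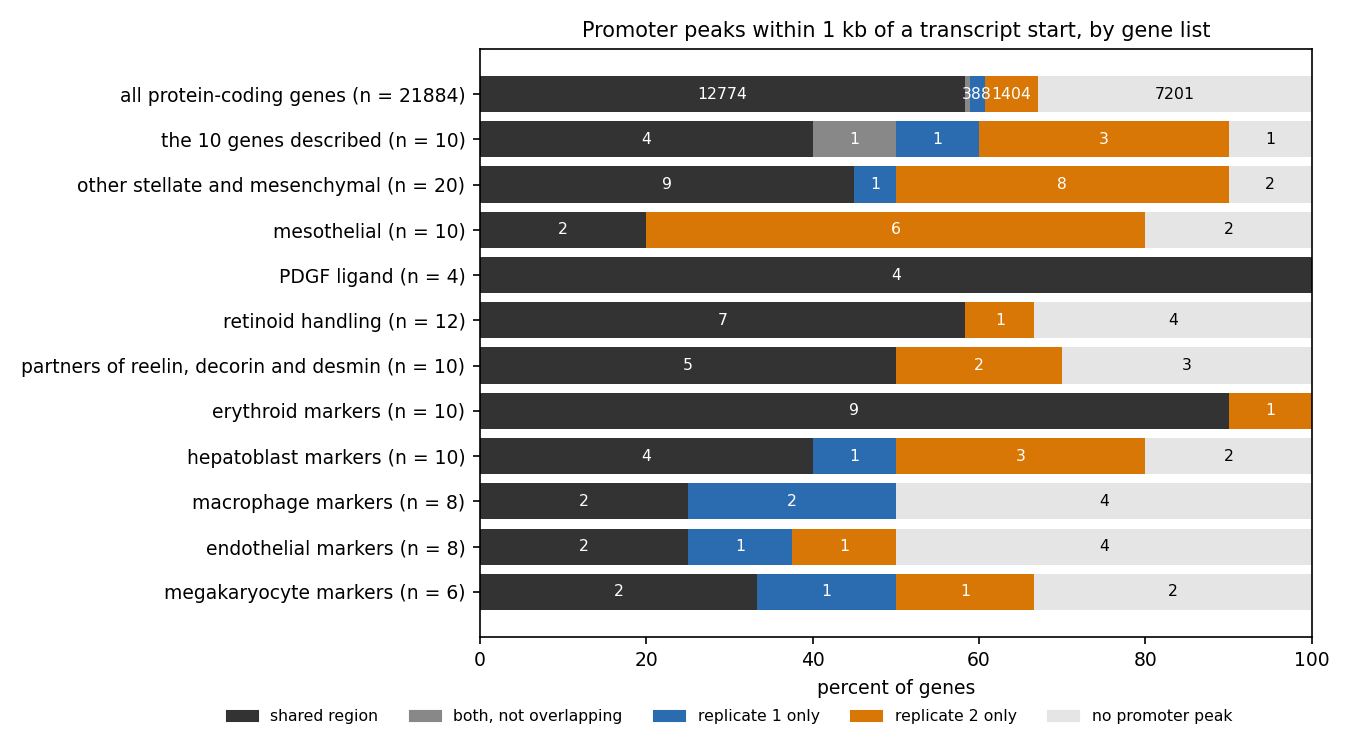
Percent of the genes of each list with a shared promoter region, non-overlapping promoter peaks, a promoter peak in 1 replicate only or none, with counts in the bars. The orange share, a peak in replicate 2 only, is 6 of 10 mesothelial, 8 of 20 further stellate and mesenchymal and 3 of the 10 genes described, beside 6.42% of all genes, 3 of 10 hepatoblast and 1 of 10 erythroid markers.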

How the data were processed

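DNase-seq peaks, footprints and FDR stretches of 2 libraries of embryonic mouse liver were used. The deposited notes say that the authors derived them per library from its filtered alignment on mm10. Aligner and callers: not given in the sources used here. The authors deposited a signal value per peak, of unstated scale, and FDR values (a p-value type) all under 0.05. The deposited footprint lists carry 0.01 in every line. The longer peak list was used. The deposited values keep no library total, so depth is given as counts per peak.

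Scripts (Python 3.11.15, pandas 2.3.3, scipy 1.17.1) merged overlapping peaks, recovered counts from the value steps (tolerance 0.05 of a step), and gave 95% Poisson intervals of values, exact binomial intervals of ratios and 95% Wilson intervals of shares, checked on simulated data. Regions were assigned by distance, with GENCODE M21. Sequence features were read from the central 200 bases of each region, and 15 motifs were searched on both strands: GATAA for GATA factors, CANNTG for E-boxes, with the overlapping narrower forms CATCTG for TCF21 and HAND2 and CAGCTG for other factors, TAATTA for homeodomain factors, TGANTCA for AP-1, GGAATG for TEAD factors, GGGCGG for SP and KLF factors, CCACACCC for KLF1, CCGGAAG for ETS factors, GTGGGAG for WT1 and EGR factors, AGGGGGC for CTCF, and by name those of NF1, HNF4 and YY1. AGGGGGC was added after the data were seen, and the printed sequences other than the shared Pdgfra, Lrat, Reln, Lhx2 and Tcf21 regions were chosen after their values were seen.

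The 10 genes and the lists (other stellate and mesenchymal, mesothelial, PDGF ligand, retinoid handling, partners of reelin, decorin and desmin, erythroid, hepatoblast, macrophage, endothelial, megakaryocyte) were chosen with earlier results of these data known. Named were all 10 genes with every class of region, and of each list its counts, its genes with a shared promoter region and the highest of them by the sum of both values. Some genes of these lists are not reported here. RefSeq starts were matched for 7 of the 10 genes. Alternatives were the shorter peak list, other promoter windows, other gene windows, stricter overlap, the upper 50% of peaks and each replicate left out. No test between conditions was possible.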

Additional observations from a re-analysis of the deposited data

How the results depend on the processing

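The counts at the 10 genes depend on how strictly peaks are called. With the shorter peak list the 10 genes had 3 shared promoters, a promoter peak at 3 in replicate 1 and 4 in replicate 2, 6 shared distal regions, 11 regions of replicate 1 alone, 4 of replicate 2 alone (all 4 at promoters), and 54.1% of all genes had a shared promoter. With the upper 50% of peaks these were 2 shared promoters, 2 and 3 genes with a promoter peak, 8 shared distal regions, 1 region of replicate 1 alone, 5 of replicate 2 alone, 4 of them at promoters, and 51.1% of all genes. At the 5' end only, they were 2 shared promoters, 3 genes with a promoter peak in replicate 1, 7 promoter regions of replicate 2 alone and 53.7% of all genes. A promoter window of 500 bp gave 56.9% of all genes and a window of 2.5 kb gave 61.4%. A gene window of 20 kb gave 9 shared distal regions and 18 overlapping footprints of replicate 1, and a window of 100 kb gave 25 and 73, with 34 regions of replicate 1 alone. Leaving out the footprints near Dnpep, chosen after seeing the data, gave 26 overlapping footprints of replicate 1.

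Leaving out a replicate, so that a region needs to be in the other only, gave 6 to 8 genes with a promoter region, 28 to 29 distal regions, 60.6% to 65.3% of all genes and 64 to 124 footprints in the windows. The median log2 centred ratio of the shared regions was 0.26 as reported and 0.19 to 0.37 under the other alternatives. With values as deposited, and so without centring, the median log2 ratio was 0.07. It differs from 0.26 only by the fixed median ratio of 0.878 used for centring. Of 190 values per gene recomputed, 143 stayed within 1.5 times. Many of these counts were 0 as reported, and a count of 0 that stayed 0 is among the 143. Of 83 summary values recomputed, 49 were classed as the same. Low counts limit the weakest regions: Lrat's promoter rests on 20 counts in replicate 1. No paired analysis was possible because the samples form 1 group. The cause of these changes was not tested beyond the fewer peaks or wider windows that each alternative uses.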
